A study of Mus musculus with 9 samples.

Results

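Genes of the endoplasmic reticulum (ER) stress pathway, the unfolded protein response (UPR), were followed in sorted endothelial cells of mouse long-bone marrow. The 36 genes were taken by name from a table of 52183 genes, and each matched 1 row. The 9 libraries form 3 groups of 3: mice of 18 months labelled as Thbs1 knockouts, aged controls of 18 months, and young controls of 3 months. Thbs1 encodes thrombospondin-1, a secreted protein of the matrix. The labels give neither strain, nor sex, nor the nature of the knockout allele, and do not state whether each library is a separate mouse. VE-cadherin, a protein of endothelial junctions, was labelled in all mice by antibody injection 10 minutes before death, and 2 ng of RNA from the sorted cells entered each library.

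Secretory cells fold and modify new proteins in the ER, and misfolded protein there activates sensors in its membrane. IRE1 (gene Ern1) splices the Xbp1 messenger into the form that encodes an active transcription factor, and ATF6 is cut to release another. Both raise chaperones and the machinery of ER-associated degradation. PERK (gene Eif2ak3) phosphorylates eIF2 alpha, which lowers general translation and favours translation of ATF4, an activator of amino acid, redox and apoptosis genes. Kinases other than PERK also feed the ATF4 branch, which is then called the integrated stress response. Endothelial cells secrete matrix and clotting proteins and so rely on this machinery. Neither Xbp1 splicing, nor ATF6 cleavage, nor ATF4 translation can be read from a value per gene.

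The promoters of some of these genes held matches to short elements through which the pathway is known to act. The matches are shown here because chaperone and ATF4-branch genes that held one held different ones. The ER stress response element (ERSE) was searched as CCAAT, 9 bases of any kind (N) and CCACG, on both strands, in the 250 bases before and 50 bases after the start of each gene in RefSeq (GRCm38.p6). RefSeq promoters matched 32 of the 36 genes, with Ero1l listed as Ero1a; Atf6, Derl1, Hyou1 and Manf were the others. An ERSE stood in 9 of the 32 genes, against 37 of the 27025 genes with a RefSeq promoter (0.137%). The chaperone list held 7 of the 9. ERSE was originally described in promoters of ER chaperone genes, so the share among them is not independent of its definition. The matched stretches follow in the orientation of the motif, with the fixed letters in capitals, and are ordered by gene.
Calr: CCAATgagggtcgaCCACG
Canx: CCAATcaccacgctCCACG
Creld2: CCAATtgaggctcgCCACG
Derl3: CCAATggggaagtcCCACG
Dnajc3: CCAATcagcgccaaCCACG
Hsp90b1: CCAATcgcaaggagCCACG
Hsp90b1: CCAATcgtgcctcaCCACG
Hspa5: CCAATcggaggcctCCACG
Pdia6: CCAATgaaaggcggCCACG
Syvn1: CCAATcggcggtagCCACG

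The Hspa5 element lay 65 to 47 bases before the start and that of Creld2 126 to 108 bases before it. A shorter relative, ERSE-II, is ATTGG and CCACG with 1 base of any kind between them. It occurred in 12 of the genes with a RefSeq promoter (0.0444%), of which Herpud1 and Dnajb11 are members. The XBP1-type element TGACGTGG was found in Sec24d alone among the members and in 0.714% of all RefSeq genes. An element bound by ATF4 with C/EBP partners, searched as TGATGNAA, was found in 4 of 32 members and in 4.51% of all RefSeq genes. Its holders were Asns, Chac1 and Trib3, which are 3 of the 6 genes of the ATF4 branch, and Herpud1. No ATF4-branch gene held an ERSE in this window, and no chaperone gene held TGATGNAA. Matches of different motifs did not overlap one another. The promoters of Creld2 and Sdf2l1, both called with age below, of Hspa5, which was not, and of the ATF4 target Asns are given whole, in capitals where a motif's fixed letters stand. None of these motifs was found in the Sdf2l1 window.
Creld2 (chr15:88819396-88819695, + strand): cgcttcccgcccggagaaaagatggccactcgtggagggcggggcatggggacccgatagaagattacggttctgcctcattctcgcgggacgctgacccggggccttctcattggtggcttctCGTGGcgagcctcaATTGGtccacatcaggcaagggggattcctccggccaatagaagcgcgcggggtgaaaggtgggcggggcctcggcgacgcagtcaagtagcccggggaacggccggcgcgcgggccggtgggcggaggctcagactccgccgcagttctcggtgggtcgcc
Sdf2l1 (chr16:17132334-17132633, - strand): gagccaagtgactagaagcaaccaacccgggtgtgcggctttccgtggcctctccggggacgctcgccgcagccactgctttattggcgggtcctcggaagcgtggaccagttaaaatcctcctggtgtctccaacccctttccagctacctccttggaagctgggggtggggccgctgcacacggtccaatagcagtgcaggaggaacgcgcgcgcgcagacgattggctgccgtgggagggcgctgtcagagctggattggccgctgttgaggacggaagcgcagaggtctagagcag
Hspa5 (chr2:34771840-34772139, + strand): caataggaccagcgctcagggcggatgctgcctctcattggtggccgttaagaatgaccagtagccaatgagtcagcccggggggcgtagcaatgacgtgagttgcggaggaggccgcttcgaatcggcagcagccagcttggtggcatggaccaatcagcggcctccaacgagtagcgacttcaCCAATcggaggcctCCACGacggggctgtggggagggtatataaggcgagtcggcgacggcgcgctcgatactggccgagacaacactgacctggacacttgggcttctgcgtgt
Asns (chr6:7693160-7693459, - strand): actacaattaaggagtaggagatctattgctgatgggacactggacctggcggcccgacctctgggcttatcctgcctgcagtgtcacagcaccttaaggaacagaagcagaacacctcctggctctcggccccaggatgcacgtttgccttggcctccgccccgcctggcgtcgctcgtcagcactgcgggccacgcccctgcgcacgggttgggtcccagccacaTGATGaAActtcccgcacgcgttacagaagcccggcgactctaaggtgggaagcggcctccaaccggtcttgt

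The deposited values are FPKM, fragments scaled to gene length and library depth, so levels of different genes are compared per length. Tests used limma on log2(FPKM + 1) over the 11796 genes that averaged 1 FPKM or more, and a gene was called at a Benjamini-Hochberg adjusted p under 0.05. Of the 36 genes, 35 passed this filter; Derl3 did not. Recovered depth was 27240000 to 30410000 fragments in the libraries labelled knockout, 22160000 to 24580000 in the aged controls and 22870000 to 23890000 in the young controls. Thbs1 averaged 21.6 ± 3.46 FPKM in the libraries labelled knockout, 0.887 ± 0.257 in the aged controls and 4.21 ± 0.331 in the young controls (SD, n = 3 each), which goes against the label. The 10 endothelial markers all passed the filter, with Cdh5 at 153 to 170 FPKM, 156 to 164 FPKM and 168 to 177 FPKM in the same order of groups, and the list's summed FPKM was 1783 to 2035, 1652 to 1866 and 1888 to 1985. Summed FPKM of 23 B-lineage and plasma cell markers, cells that also express much of this machinery, was 20.6, 1847 and 618 in replicates 1 to 3 of the labelled group. It was 3080, 1708 and 550 in aged controls 1 to 3, and 34.4, 20.0 and 585 in young controls 1 to 3. In such bulk RNA, fewer cells of a type and less RNA per cell cannot be told apart. None of those markers was at 0 in all libraries, 6 were under 1 FPKM in every library, and Igkc, Ighm and Igha led the sum. Prdm1 and Fkbp11 in that list are also expressed outside the lineage, and Derl3 is itself 1 of the 36 genes.

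Aged and young controls differ in age alone, as far as the labels say. Thbs1, however, also fell with age by these labels (log2 fold change -1.47, limma adjusted p = 0.00385). Whether the labels of aged controls and knockouts were exchanged was not tested. With exchanged labels, every difference given here as one of age would mix age and genotype. From young to aged controls, Creld2, Sdf2l1 and Edem1 rose, and none of the 35 tested members fell. At an unadjusted p under 0.05 there were 18 (51.4%), against 27.7% of all tested genes. By GENCODE M21 on GRCm38, Creld2 on chromosome 15 (88819646 to 88826683, + strand), Sdf2l1 on chromosome 16 (17130138 to 17132383, - strand) and Edem1 on chromosome 6 (108828641 to 108859356, + strand) are protein-coding genes. Background was 3.99% of all tested genes called in either direction, 1.2% as higher and 2.8% as lower, against 8.57% of the members. Creld2, a secreted ER-resident factor of disulfide exchange, had 69.25, 45.42 and 44.40 FPKM in aged controls 1 to 3 and 23.63, 30.01 and 26.61 FPKM in young controls 1 to 3. The groups did not overlap, and aged control 1 stood above the other two (1.98 times the young mean, log2 fold change 0.94 ± 0.197 SE, adjusted p = 0.0391). Sdf2l1, a partner of the chaperone BiP, had 45.99, 27.53 and 41.04 FPKM in the aged controls and 15.71, 21.20 and 17.46 FPKM in the young controls. Again no aged value reached down to a young one (2.11 times, log2 fold change 1.01 ± 0.228 SE, adjusted p = 0.0435). Edem1, a lectin-like protein that hands glycoproteins to degradation, had 9.78, 10.31 and 10.89 FPKM in the aged controls, against 8.38, 7.33 and 7.53 FPKM in the young controls. This was the smallest of the called changes, 1.33 times, with a log2 fold change of 0.37 ± 0.0886 SE and an adjusted p of 0.0491.

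Markers of the sorted cells and of marrow stroma also differed between these ages. Of the 10 endothelial markers, 8 had negative log2 fold changes (median -0.17), 4 were lower in every aged control than in any young one, against 21.8% of all tested genes, and Erg, an endothelial transcription factor, fell (9.28 ± 1.96 FPKM in aged and 14.4 ± 0.801 FPKM in young controls, log2 fold change -0.60, adjusted p = 0.0447). Of 11 stromal, osteoblast and fat cell markers 5 were tested, and all 5 lay wholly below the young controls, against 21.8% of all tested genes. Of these 5, 4 (80%) fell, Kitl, Adipoq, Ibsp and Cxcl12, against 2.8% of all tested genes. Which cells these transcripts came from was not tested. The summed FPKM of the 11 markers was 37.9 to 51.3 in the libraries labelled knockout, 42.8 to 51.4 in the aged controls and 82.2 to 112 in the young controls, led by Cxcl12, Ibsp and Adipoq. None of the 11 was at 0 in all libraries, and Col1a1, Sp7, Pdgfra and Bglap were under 1 FPKM in every one. The part of either marker list in the age differences of the members was not tested.

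The calls of Creld2, Sdf2l1 and Edem1 were lost in 7, 6 and 8 of the 9 fits that each omitted 1 library, and no member was called without young control 1, 2 or 3, aged control 1 or labelled knockout 3. Without aged control 2, and likewise without aged control 3, 1 member was called; without labelled knockout 1 there were 2, and without labelled knockout 2 there were 8, all as higher. Edem1 was also not called with a pseudocount of 0.1 or 5 (adjusted p = 0.0502 in each) or in the fit of these 6 libraries alone (adjusted p = 0.0615). The log2 fold changes of all 3 genes were positive in the fits that omitted a library, at 0.73 to 1.05 for Creld2, 0.87 to 1.23 for Sdf2l1 and 0.34 to 0.43 for Edem1.

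Across the chaperone list the aged controls were higher for most genes, but by very different amounts. The list holds the 14 chaperones, co-chaperones and folding enzymes regarded as targets of ATF6 and XBP1. Its median log2 fold change was 0.34, against -0.05 over all tested genes; 2 of 14 passed the test. Manf, a secreted chaperone-like protective factor, had 62.27, 36.24 and 26.76 FPKM in the aged controls and 18.23, 20.00 and 16.68 FPKM in the young controls. Every aged value was above every young one, but the aged values spread widely and limma did not call the gene (log2 fold change 1.07 ± 0.269 SE, adjusted p = 0.0574), while voom on recovered fragments and limma with a filter at 5 FPKM did (adjusted p = 0.0428 and 0.0396). Calr, the lectin chaperone calreticulin, averaged 448.3 ± 76.5 and 284.6 ± 58.8 FPKM (aged and young, adjusted p = 0.0726). The protein disulfide isomerases Pdia6 and Pdia4 averaged 159.5 ± 23 and 116.1 ± 15 FPKM in aged controls and 107.3 ± 15.1 and 81.0 ± 9.18 FPKM in young controls (adjusted p = 0.054 and 0.0678). For both isomerases the groups did not overlap, and Pdia6 was called with voom and with the filter at 5 FPKM (adjusted p = 0.0411 and 0.0403). Manf shares 146 exonic bases with Dcaf1 on the opposite strand, as Derl2 does 231 with Mis12 and Syvn1 91 with Mrpl49, so their values are uncertain.

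Hspa5, Hsp90b1, Canx and Dnajc3 had close mean levels at both ages, while other genes of the list differed more. Hspa5, which encodes BiP, the chaperone that restrains the sensors, had 453.50, 302.09 and 226.70 FPKM in the aged controls and 302.42, 319.92 and 315.89 FPKM in the young controls. One aged library stood above and another below all young ones (log2 fold change 0.01 ± 0.205 SE, adjusted p = 0.984). Hsp90b1, which encodes GRP94, averaged 61.3 ± 23.1 and 58.6 ± 10.2 FPKM in aged and young controls (adjusted p = 0.989). The lectin chaperone Canx averaged 118.5 ± 20.3 FPKM in the aged controls and 110.8 ± 8.1 FPKM in the young controls. Dnajc3, a co-chaperone of BiP, averaged 36.3 ± 7.55 FPKM in the aged controls and 33.4 ± 2.51 FPKM in the young controls. Dnajb9, a BiP co-chaperone induced through XBP1, was the single gene of the list with a negative log2 fold change (-0.43 ± 0.241 SE, adjusted p = 0.277), at 85.39, 64.72 and 36.70 FPKM in aged and 76.49, 77.37 and 84.60 FPKM in young controls. The co-chaperone Dnajb11 and the nucleotide exchange factor Hyou1 averaged 47.7 ± 7.44 and 5.45 ± 0.630 FPKM in aged controls, and 36.5 ± 3.06 and 4.19 ± 0.524 FPKM in young controls. For both genes every aged value was above every young one (adjusted p = 0.0892 and 0.149). The isomerase Pdia3 averaged 316.5 ± 65.0 FPKM in aged and 251.7 ± 27.7 FPKM in young controls. None of these was called. The 8 tested members in which an ERSE was found had log2 fold changes of 0.94 for Creld2, 0.66 for Calr, 0.57 for Pdia6, 0.10 for Dnajc3, 0.08 for Canx, 0.07 for Syvn1, and 0.01 for both Hspa5 and Hsp90b1. The part of the element in the size of change was not tested.

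**Figure D1:**
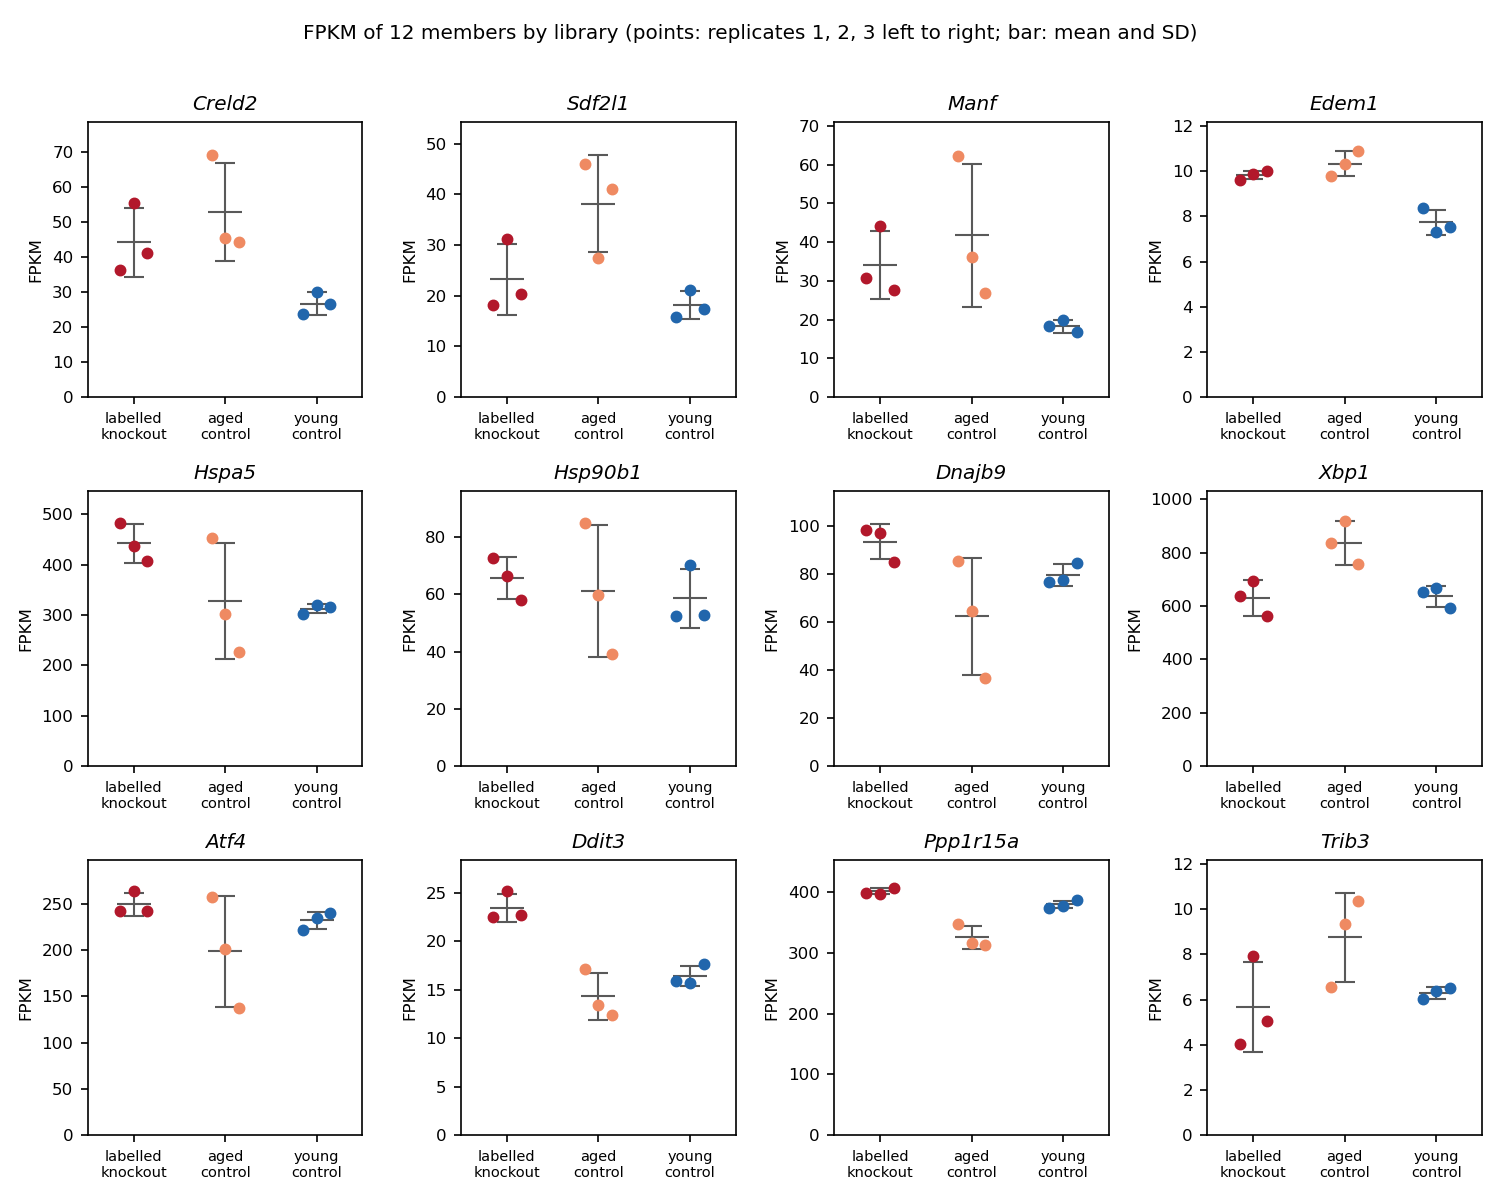
FPKM (vertical axes, from 0) of 12 members in each library, with the groups along the horizontal axes, replicates 1 to 3 from left to right as points, and the mean and SD as bars. Creld2, Sdf2l1, Manf and Edem1 are higher in every aged control than in any young control, Hspa5 spreads over 226.70 to 453.50 FPKM in the aged controls, and Ddit3 is higher in all 3 libraries labelled knockout than in any other.

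Degradation genes shared the direction of the chaperones in the aged controls. All 8 tested genes of this list had positive log2 fold changes (median 0.29), of which Edem1 passed the test, and in 7 of them every aged value was above every young one, against 13.9% of all tested genes. Edem2, a relative of Edem1, averaged 24.4 ± 1.61 and 18.2 ± 1.88 FPKM in aged and young controls (adjusted p = 0.0831). The retrotranslocation channel gene Derl1 averaged 58.3 ± 2.34 FPKM in aged and 47.2 ± 0.335 FPKM in young controls (adjusted p = 0.0831), and its relative Derl2 12.3 ± 1.69 FPKM in aged and 9.77 ± 0.184 FPKM in young controls. Herpud1, a membrane protein of the degradation complex, stood at 79.1 ± 6.49 FPKM in aged and 66.5 ± 2.22 FPKM in young controls. Selenos, a selenoprotein of that complex, reached 106.82, 68.06 and 63.07 FPKM in the aged controls, against 54.62, 57.60 and 57.46 FPKM in the young controls, with aged control 1 well above all others. Sel1l and Syvn1, the adaptor and ubiquitin ligase of the core complex, were nearly level, at 22.6 ± 0.554 and 11.1 ± 1.07 FPKM in aged controls and 20.9 ± 0.829 and 10.5 ± 0.695 FPKM in young controls. Derl3, the form typical of secretory cells, was at 0.66, 0.99 and 0.35 FPKM in aged and 0.18, 0.07 and 0.15 FPKM in young controls, below the filter. For Derl3 the exact permutation test over libraries, two-sided, gave 0.1, which is the lowest p that 3 against 3 can reach.

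Among sensors and factors, Xbp1 was the most abundant member in every group. It had 835.04, 919.87 and 756.08 FPKM in the aged controls and 651.06, 666.43 and 591.54 FPKM in the young controls. All aged values were higher, yet the gene was not called (log2 fold change 0.39 ± 0.114 SE, adjusted p = 0.0758). Atf6 was at 3.77, 4.20 and 4.18 FPKM in aged and 6.21, 5.44 and 5.05 FPKM in young controls, the other way round and also without overlap (log2 fold change -0.38 ± 0.123 SE, adjusted p = 0.0958). Ern1 and Eif2ak3 averaged 3.73 ± 1.88 and 4.41 ± 0.771 FPKM in aged controls and 3.12 ± 0.348 and 4.64 ± 0.3 FPKM in young controls, with overlapping ranges. Sec61b, a subunit of the channel through which proteins enter the ER, averaged 59.8 ± 13.3 and 41 ± 3.13 FPKM in aged and young controls. Sec24d, of the coat that exports cargo, averaged 16.3 ± 3.68 FPKM in aged and 16.9 ± 1.08 FPKM in young controls, and the oxidase Ero1l 10.5 ± 1.12 FPKM in aged and 11.5 ± 0.163 FPKM in young controls. None of these was called. Over all tested members, 54.3% had every aged value above every young one and 5.71% every aged value below, against 13.9% and 21.8% of all tested genes (35.7% in either direction).

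The ATF4 branch had no called gene with age and a median of the opposite sign. None of its 6 genes passed in limma, 1 had an unadjusted p under 0.05 (27.7% of all tested genes did), and voom on recovered fragments also called none. The median log2 fold change was -0.21. Ppp1r15a, which encodes GADD34, the phosphatase subunit that restores translation, had 347.66, 316.80 and 313.40 FPKM in the aged controls and 374.63, 377.79 and 386.48 FPKM in the young controls. All aged values were lower, by a small amount (log2 fold change -0.22 ± 0.0813 SE, adjusted p = 0.123). The gene was called as lower with quantile normalization (adjusted p = 0.0365) or with B-lineage genes removed and libraries rescaled (adjusted p = 0.0403). Under the last setting the median of all genes was -0.13. Atf4 itself averaged 198.7 ± 59.9 and 232.4 ± 9.25 FPKM in aged and young controls, Ddit3 14.3 ± 2.46 FPKM in aged and 16.4 ± 1.08 FPKM in young controls, and Chac1 0.787 ± 0.399 FPKM in aged and 1.20 ± 0.221 FPKM in young controls. Trib3, a pseudokinase that dampens the branch, and Asns, asparagine synthetase, had higher aged means instead, at 8.75 ± 1.97 and 23.1 ± 2.28 FPKM in aged controls and 6.30 ± 0.264 and 20.4 ± 0.603 FPKM in young controls. The branch was not uniform, with 2 positive and 4 negative log2 fold changes.

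Libraries of the same group differed together in the chaperones. Aged control 1 was the highest of its group for 11 of the 14 genes and aged control 3 the lowest for 12. The median SD over the list was 20.7% of the mean in the aged controls, against 16.4% over all tested genes. Within the young controls, replicate 2 was highest for 12 of 14, and within the libraries labelled knockout, replicate 2 was highest for 9 of 14. Summed B-lineage markers had the order of the chaperones among the aged controls (3080, 1708 and 550 FPKM), and labelled knockout 2 was highest in its group for both. Young control 2, the highest young library for chaperones, had 20.0 FPKM of these markers. Summed megakaryocyte and platelet markers had the same order in the aged controls (34.8, 26.6 and 24.1 FPKM). Sums of neutrophil markers (12.7, 90.4 and 285 FPKM), of stromal markers and of immediate early and heat shock genes had the reverse order there. The remaining marker lists had neither order. With the B-lineage marker genes removed and libraries rescaled, Creld2 and Sdf2l1 were still called, joined by Manf and Pdia6, and Edem1 was not. That removal does not take out chaperone transcripts of B-lineage cells themselves, whose part in the chaperone levels was not tested.

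**Figure D2:**
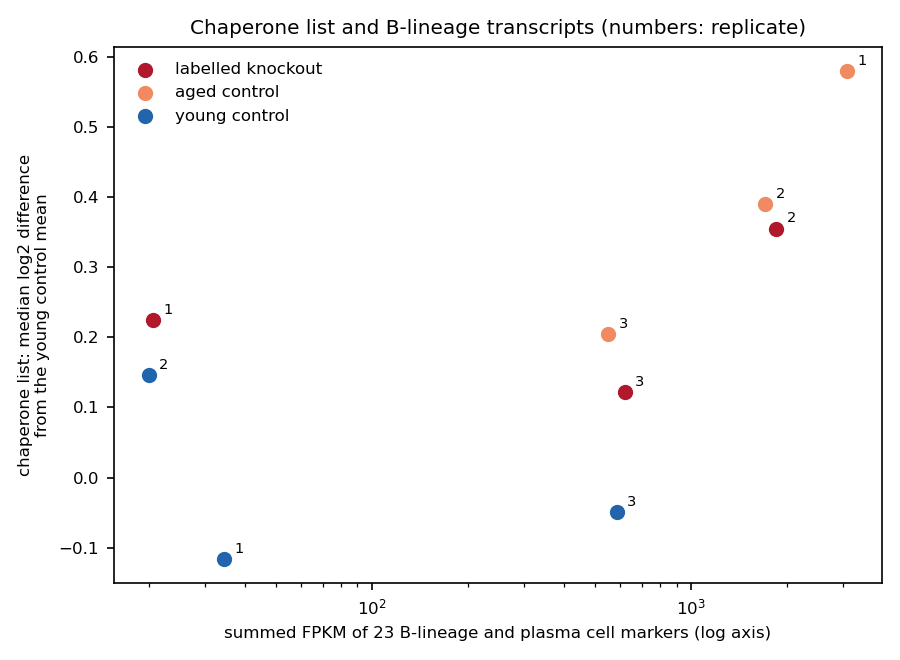
Median log2 difference of the 14 chaperone genes from the young control mean (vertical axis) against the summed FPKM of 23 B-lineage and plasma cell markers (horizontal log axis), 1 point per library with its replicate number. The aged controls run from 0.21 at 550 FPKM to 0.58 at 3080 FPKM, while labelled knockout 1 stands at 0.22 with 20.6 FPKM.

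The contrast of both gene groups was read in each library as the median log2(FPKM + 1) difference from the young control mean. The chaperone list stood at 0.22, 0.36 and 0.12 in the libraries labelled knockout, 0.58, 0.39 and 0.21 in the aged controls, against -0.12, 0.15 and -0.05 in the young controls. For the ATF4 branch the values were 0.07, 0.24 and 0.08 in the labelled group, 0.05, -0.19 and -0.18 in the aged and -0.03, -0.03 and 0.05 in the young controls. Chaperones minus ATF4 branch gave 0.16, 0.12 and 0.04 in the libraries labelled knockout, 0.53, 0.58 and 0.38 in the aged controls, against -0.09, 0.17 and -0.10 in the young controls. All 3 aged controls therefore lay above the other 6 libraries in this difference, which the chaperone list alone did not show. No p is given, since the genes were chosen with results of these data known.

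**Figure D3:**
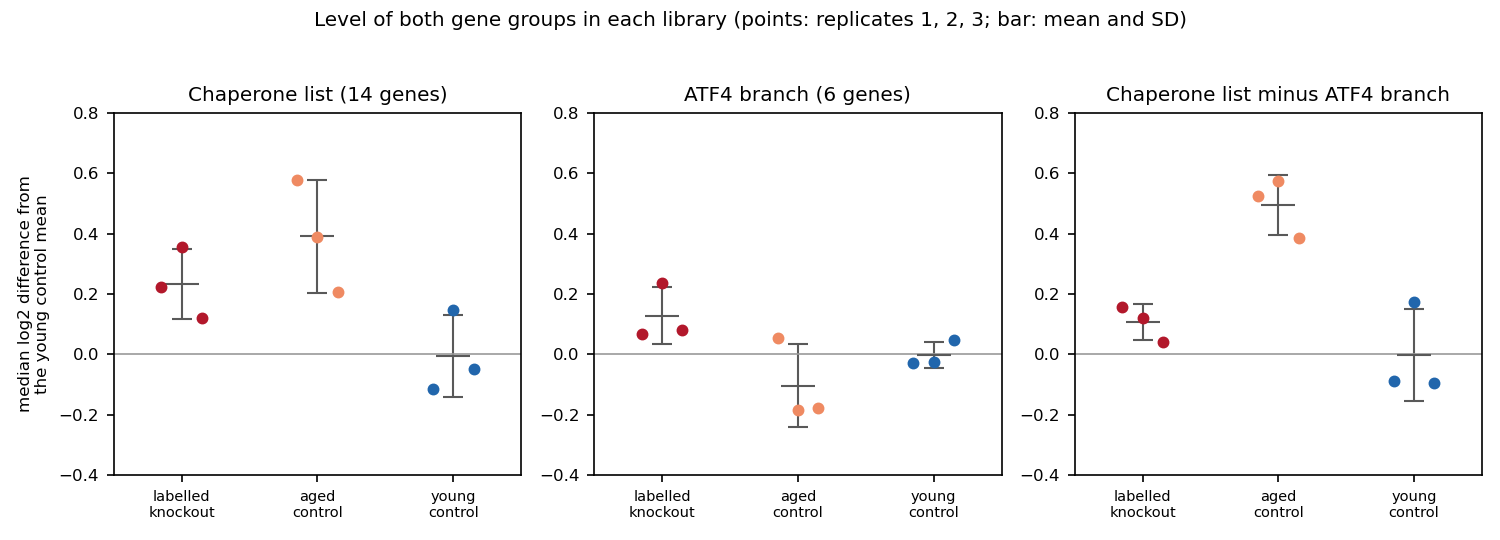
Median log2 difference from the young control mean (vertical axis) of the chaperone list, the ATF4 branch and the first minus the second, in each library, with replicates 1 to 3 as points from left to right and the group mean and SD as bars. The difference between both lists is 0.38 to 0.58 in the aged controls, above its range of 0.04 to 0.16 in the libraries labelled knockout and -0.10 to 0.17 in the young controls.

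Setting the labelled knockout libraries against the aged controls addresses the labelled genotype at 18 months, with Thbs1 itself higher in the labelled group. Ddit3 rose and was the single called member, 2.86% of those tested. Background was 4.79% of all tested genes called in either direction, 2.78% as higher and 2.01% as lower. At an unadjusted p under 0.05 there were 18 members (51.4%), against 24.1% of all tested genes. Ddit3, on chromosome 10 (127290774 to 127296288, + strand), encodes CHOP, the transcription factor that links prolonged ER stress to apoptosis. It had 22.53, 25.15 and 22.76 FPKM in the libraries labelled knockout and 17.10, 13.42 and 12.44 FPKM in the aged controls. The groups were well apart, 1.64 times on average (log2 fold change 0.69 ± 0.12 SE, adjusted p = 0.014), and the call held in all 9 fits that each omitted 1 library. It was lost without a filter on low values (adjusted p = 0.0586) and in the fit of these 6 libraries alone (adjusted p = 0.0697). Ddit3 shares 68 exonic bases with Mars on the opposite strand, and no source used here gives the strand setting of the counts. The young controls, at 15.95, 15.65 and 17.65 FPKM, also lay below every library labelled knockout.

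Other ATF4-branch genes split as they had with age. Ppp1r15a had 398.82, 397.55 and 406.72 FPKM in the libraries labelled knockout and 347.66, 316.80 and 313.40 FPKM in the aged controls. No value overlapped (log2 fold change 0.30 ± 0.0813 SE, adjusted p = 0.0653). The gene was called without aged control 1 (adjusted p = 0.0448), with quantile normalization (0.0218) and with B-lineage genes removed and libraries rescaled (0.023). Under the last setting the median of all genes was 0.07. Atf4 averaged 249.7 ± 12.6 FPKM in the libraries labelled knockout and 198.7 ± 59.9 FPKM in the aged controls (adjusted p = 0.251). Chac1, a glutathione-degrading enzyme, had 1.81, 1.02 and 2.27 FPKM in the labelled group and 0.33, 0.96 and 1.07 FPKM in the aged controls. Its adjusted p was 0.153, its level was near the filter, and it lies 1.22 Mb from Thbs1 on chromosome 2. Trib3 had 4.05, 7.91 and 5.05 FPKM in the labelled group and 6.56, 9.34 and 10.36 FPKM in the aged controls, so the groups overlapped through replicate 2. Its log2 fold change was -0.57 ± 0.208 SE (adjusted p = 0.138), and -0.80 without labelled knockout 2, where it was called (adjusted p = 0.027). Asns averaged 20.6 ± 4.31 FPKM in the labelled group and 23.1 ± 2.28 FPKM in the aged controls (adjusted p = 0.468). The median of the branch was 0.34, against 0.00 over all tested genes. Both comparisons share the aged controls, so opposite signs in them are not separate observations.

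None of the chaperone and degradation genes was called here by limma, while 6 of 14 and 5 of 8 had an unadjusted p under 0.05, against 24.1% of all tested genes; with voom on recovered fragments Edem2 was called as lower. The median of the chaperone list was -0.20, a value that 1 library could move: it was -0.015 without aged control 1, -0.097 without labelled knockout 3 and -0.33 without labelled knockout 2. Sdf2l1 had 18.17, 31.23 and 20.38 FPKM in the libraries labelled knockout and 45.99, 27.53 and 41.04 FPKM in the aged controls. Labelled knockout 2 lay above the lowest aged control, and the gene was called only in the fit without it (log2 fold change -0.70 ± 0.228 SE, adjusted p = 0.105; -0.92 and adjusted p = 0.0323 without it). Creld2 had 36.27, 55.38 and 41.26 FPKM in the labelled group, with replicate 2 again the highest (log2 fold change -0.25, adjusted p = 0.477). Creld2 thus lay above all young controls in every labelled library too. Manf was at 30.63, 44.03 and 27.65 FPKM (log2 fold change -0.23, adjusted p = 0.642). The isomerases Pdia3, Pdia4 and Pdia6 had log2 fold changes of -0.37, -0.36 and -0.36, with adjusted p of 0.155 for the last of them and 0.176 for Pdia3. Pdia3 lies 3.29 Mb from Thbs1. Calr averaged 364.2 ± 73.0 FPKM in the libraries labelled knockout and 448.3 ± 76.5 FPKM in the aged controls.

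Hspa5 and Dnajb9 had positive differences instead. Hspa5 had 483.24, 437.13 and 406.79 FPKM in the libraries labelled knockout and 453.50, 302.09 and 226.70 FPKM in the aged controls. Aged control 1 overlapped the labelled group (log2 fold change 0.49 ± 0.205 SE, adjusted p = 0.184), and without it Hspa5 was called (log2 fold change 0.75, adjusted p = 0.0237). Dnajb9 had 98.26, 97.15 and 84.88 FPKM in the labelled group and 85.39, 64.72 and 36.70 FPKM in the aged controls, with the same single overlap (adjusted p = 0.139; 0.0489 without aged control 1). Both genes were higher in every labelled library than in any young control, as were 8.46% of all tested genes. For Dnajb9 the nearest values were 84.88 FPKM in the labelled group and 84.60 FPKM in the young controls (log2 fold change 0.23, adjusted p = 0.811). Hsp90b1, Canx and Dnajc3 averaged 65.7 ± 7.28, 122.6 ± 8.72 and 35.4 ± 2.22 FPKM in the labelled group, against 61.3 ± 23.1, 118.5 ± 20.3 and 36.3 ± 7.55 FPKM in the aged controls. Dnajb11 and Hyou1 had log2 fold changes of -0.11 and -0.17. The chaperone list thus held genes of both signs, 4 positive and 10 negative.

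Xbp1 was lower without overlap in the labelled group, with 636.72, 694.57 and 561.00 FPKM there against 835.04, 919.87 and 756.08 FPKM in the aged controls. It was not called (log2 fold change -0.41 ± 0.114 SE, adjusted p = 0.0723) except in the fit without labelled knockout 2 (adjusted p = 0.0392). Its labelled and young means were close, 630.8 ± 67.0 and 636.3 ± 39.6 FPKM. Edem2 had 14.11, 18.72 and 18.35 FPKM in the labelled libraries and 22.73, 24.37 and 25.95 FPKM in the aged controls (adjusted p = 0.0518). No value overlapped, and Edem2 was called without labelled knockout 2 and under 5 other settings given in the closing section. Herpud1 differed in the other direction, at 94.66, 100.07 and 89.75 FPKM in the labelled group against 84.46, 71.89 and 80.99 FPKM in the aged controls (log2 fold change 0.26 ± 0.0904 SE, adjusted p = 0.121). Herpud1 was called with quantile normalization (0.0459) or with B-lineage genes removed and libraries rescaled (0.0423). It was highest in the labelled group, then the aged controls, then the young controls, with no overlap between neighbouring groups. Syvn1 averaged 13.2 ± 0.451 and 11.1 ± 1.07 FPKM in labelled and aged libraries, without overlap and not called. Edem1 averaged 9.84 ± 0.186 FPKM in the labelled group and 10.3 ± 0.555 FPKM in the aged controls. Derl1, Derl2 and Sel1l averaged 49.6 ± 5.17, 9.56 ± 0.834 and 21 ± 0.569 FPKM in the libraries labelled knockout, each gene below all its aged values and not called. Selenos averaged 67.4 ± 7.62 FPKM, and Derl3 was at 0.05, 0.73 and 0.09 FPKM, the highest being the replicate with the largest B-lineage sum of that group. In neither the aged nor the young controls was Derl3 highest in the library with the largest B-lineage sum. Atf6, Ern1 and Eif2ak3 averaged 5.38 ± 0.837, 4.62 ± 0.552 and 5.31 ± 1.36 FPKM in the labelled group (log2 fold changes 0.33, 0.32 and 0.21, none called); Atf6 was called without labelled knockout 2 (adjusted p = 0.046). Sec61b, Sec24d and Ero1l averaged 47.0 ± 6.86, 20.2 ± 2.01 and 12.8 ± 0.996 FPKM in the labelled group, none of them called. Over all tested members 17.1% lay wholly above and 17.1% wholly below the aged controls, against 12.1% and 11.1% of all tested genes (23.2% in either direction).

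**Figure D4:**
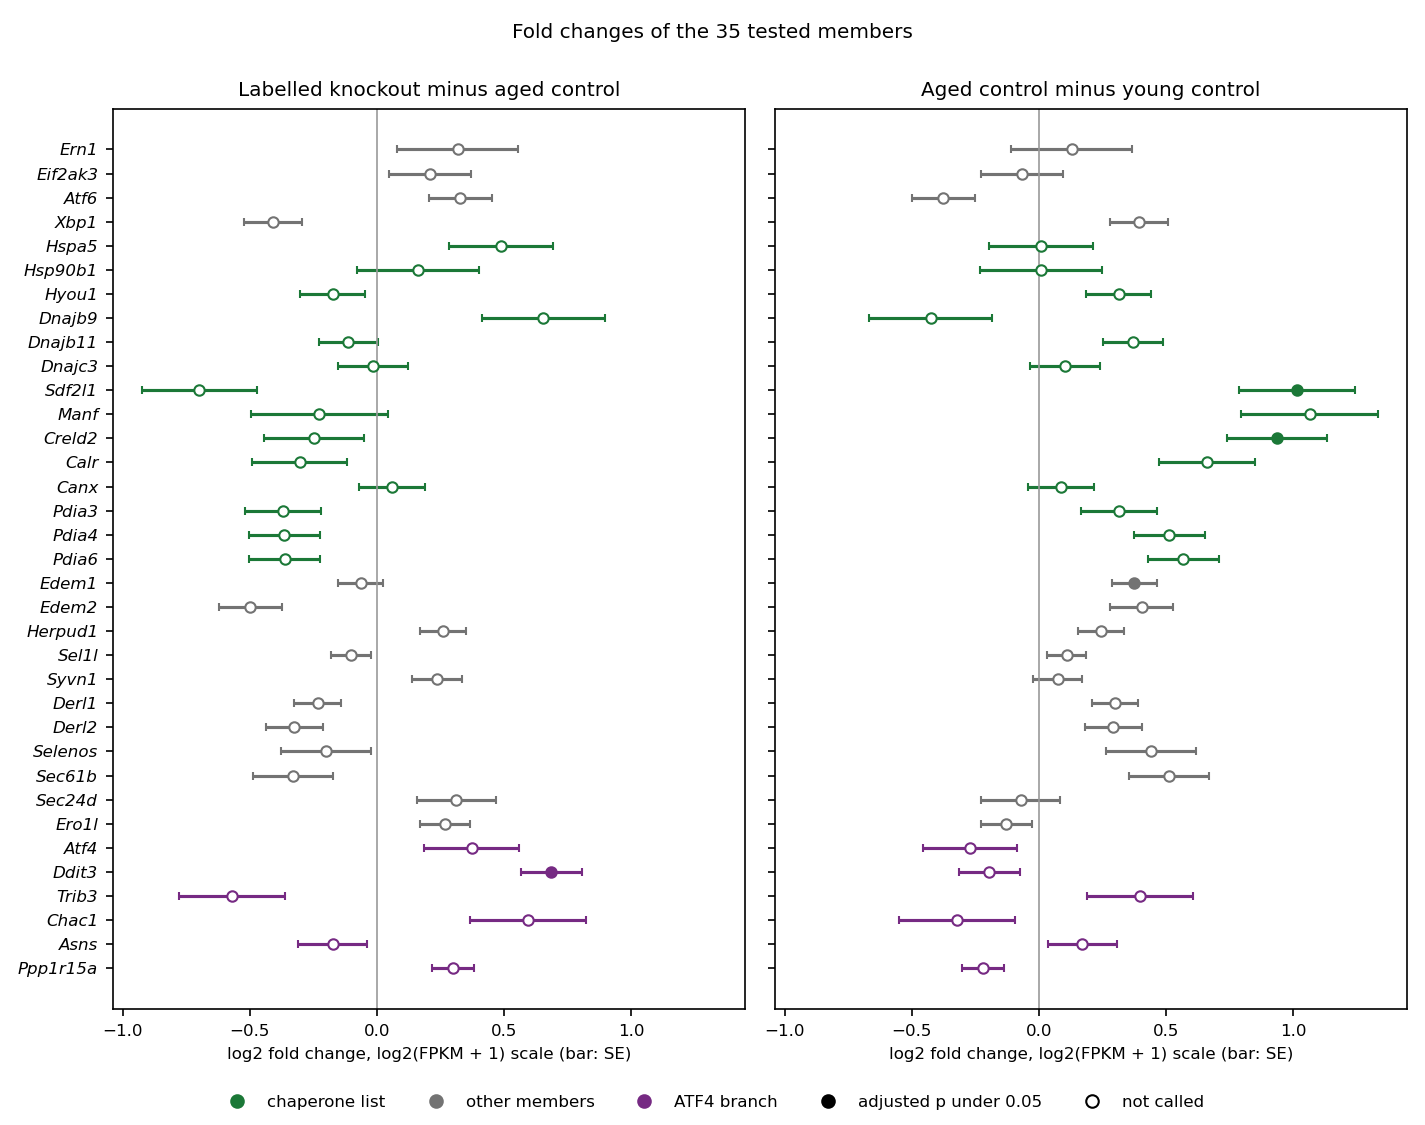
Log2 fold changes on the log2(FPKM + 1) scale (horizontal axes, points with SE bars) of the 35 tested members for labelled knockout minus aged control (left) and aged control minus young control (right), ordered by role from sensors at the top to the ATF4 branch at the bottom. Filled points passed the test: Ddit3 at 0.69 on the left, and Sdf2l1 at 1.01, Creld2 at 0.94 and Edem1 at 0.37 on the right.

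Genes known to be induced by cell isolation also differed between these groups. Of 12 immediate early and heat shock genes, 4 (33.3%) rose in the libraries labelled knockout against the aged controls, and none fell. Of all tested genes, 2.78% rose and 2.01% fell. The 4 were Atf3, Egr1, Dnajb1 and Hsph1, of which Atf3 is also in the integrated stress response list below. Of the 12 genes, 7 had positive and 5 negative log2 fold changes (median 0.14). In the 9 fits that each omitted 1 library the calls of Atf3, Egr1 and Hsph1 held, and that of Dnajb1 was lost in 5 (adjusted p = 0.111 without labelled knockout 1). The summed FPKM of the list was 10300 to 10980 in the labelled group, 8102 to 11000 in the aged controls and 8642 to 9833 in the young controls. Their part in the Ddit3 difference was not tested.

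The libraries labelled knockout differ from the young controls in age and labelled genotype together. None of the 35 members was called by limma, against a background of 0.212% of all tested genes, 0.0848% as higher and 0.127% as lower; 7 members (20%) had an unadjusted p under 0.05, against 9.27% of all tested genes, and voom on recovered fragments also called none. The lowest adjusted p was that of Herpud1, 0.0874, with 94.8 ± 5.16 FPKM in the labelled group and 66.5 ± 2.22 FPKM in the young controls. Herpud1 was called in the fit of these 6 libraries alone (adjusted p = 0.0446). In this comparison Manf had the largest log2 fold change (0.84, adjusted p = 0.349), ahead of Creld2 (0.69), Herpud1 and Hspa5 (0.50 each) and Ddit3 (0.49, adjusted p = 0.222). Among tested members, 42.9% lay wholly above the young controls and none wholly below, against 8.46% and 14% of all tested genes (22.4% in either direction). This comparison shares its libraries with both others.

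Other genes of the pathway were read from lists that hold none of the 36. The share called with age was 3.12% for folding and degradation, 6.45% for translocation and export and 7.14% for the integrated stress response. Over all tested genes it was 3.99%, with 1.2% as higher and 2.8% as lower. Among 32 further folding and degradation genes, 1 rose with age, Fkbp2, an ER prolyl isomerase, with 65.96, 58.24 and 62.33 FPKM in the aged controls and 21.57, 26.98 and 24.50 FPKM in the young controls (log2 fold change 1.32, adjusted p = 0.0168). None fell. The list's median log2 fold change was 0.06. Among 31 tested genes of translocation, export and membrane-bound factors, 2 rose and none fell: Spcs2, of the signal peptidase, and Ddost, of the oligosaccharyltransferase (log2 fold changes 0.59 and 0.42, adjusted p = 0.0406 and 0.0408). The median of this list was 0.23, and 18 of 31 genes lay wholly above the young controls, against 13.9% of all tested genes. The call of Fkbp2 was lost without young control 1, 2 or 3 (adjusted p up to 0.092), and those of Spcs2 and Ddost in 6 and 7 of the 9 fits that each omitted 1 library, each young control among them; without young control 1 the adjusted p was 0.15 and 0.151. Among 28 tested genes of the integrated stress response, Atf3, a stress-induced transcription factor, and Eif2ak2, the kinase activated by double-stranded RNA, fell with age (log2 fold changes -0.61 and -0.81, adjusted p = 0.0401 and 0.0355), and none rose. This list had a median of -0.13. The calls of Atf3 and Eif2ak2 with age were lost in 6 and 7 of the 9 fits, and without each young control (adjusted p up to 0.147 and 0.141).

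Between the libraries labelled knockout and the aged controls, the integrated stress response list had 4 genes higher and 1 lower, 17.9% of its 28 tested genes. Of all tested genes 4.79% were called, 2.78% as higher and 2.01% as lower. Atf3 had 318.72, 325.56 and 279.53 FPKM in the labelled group and 173.00, 156.69 and 122.69 FPKM in the aged controls (log2 fold change 1.04, adjusted p = 0.00385). Eif2ak4, which encodes the amino acid sensing kinase GCN2, had 5.89, 4.85 and 5.19 FPKM in the labelled group against 3.24, 2.87 and 2.37 FPKM in the aged controls (adjusted p = 0.0117). Both genes were higher in each labelled library than in any aged control; in the fits that each omitted 1 library the call of Atf3 held, and that of Eif2ak4 was lost without labelled knockout 1 (adjusted p = 0.0544). Sesn2, a stress-induced inhibitor of mTORC1, and the amino acid transporter Slc7a5 rose as well, Slc7a5 at a low level of 2.54 to 2.84 FPKM in the labelled group against 1.14 to 1.44 FPKM in the aged controls. Phgdh, the first enzyme of serine synthesis, fell to values of 0.96, 3.17 and 1.20 FPKM in the labelled group, against 4.41, 5.05 and 5.19 FPKM in the aged controls (log2 fold change -1.16, adjusted p = 0.0272). Of the folding and degradation list, Fkbp11 fell (log2 fold change -0.50, adjusted p = 0.0496) and none rose, and no gene of the translocation and export list was called by limma, with 9 of 31 at an unadjusted p under 0.05, against 24.1% of all tested genes. The calls of Sesn2, Slc7a5, Phgdh and Fkbp11 were lost in 4, 6, 8 and 8 of the 9 fits that omitted a library, with the highest adjusted p at 0.12, 0.131, 0.102 and 0.164; without labelled knockout 1 none of the 4 was called. Fkbp11, an ER prolyl isomerase, is also in the B-lineage marker list. Against the young controls no gene of the 3 lists was called by limma, with 1, 2 and 4 at an unadjusted p under 0.05, against 9.27% of all tested genes.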

How the data were processed

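The authors deposited FPKM values rounded to 2 decimals for 52183 genes in 9 libraries, made per the labels' protocols with a low-input cDNA kit. FastQC 0.11.5, STAR and edgeR, and the builds GRCm38 and mm10, are named in the submitters' processing notes with no role; no source used here gives counting rules or strand setting, so values of overlapping genes or near-identical copies are uncertain; among members this touches Ddit3, Manf, Syvn1, Derl2 and Hsp90b1 most. All identifiers matched GENCODE M21 (GRCm38), which gave coordinates and exon lengths, and every column was mapped to a sample.

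Fragment depth was read from genes of 60 to 400 bases, where low FPKM values were whole fragments within 0.1 for 99.5% to 99.8% of 1061 to 1708 values per library. No pair of libraries held identical values. The count tests are not the main result because the values are FPKM. The test was limma 3.58.1 in R 4.3.3 on log2(FPKM + 1), a mean per group over all 9 libraries with 6 residual degrees of freedom, eBayes with a trend, and Benjamini-Hochberg adjustment over 11796 genes; it was tested on simulated data. This scale understates changes of genes with low values. Since no label names separate animals, p reflects spread among libraries, which may be technical. The members, lists and tests were chosen with earlier results of these data known, so lists are described by counts and medians. Every member could be named, and up to 3 called genes per other pathway list and comparison; Sesn2, Slc7a5, Erg, Kitl and the isolation genes were named after their values were seen, to complete counts. Alternatives are in the closing section. Figures used Python 3.11.15 and matplotlib 3.10.9. Promoters are those of RefSeq.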

Additional observations from a re-analysis of the deposited data

How the results depend on the processing

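The direction of the chaperone list's median held under each of the 10 settings tried besides leaving out libraries: 0.25 to 0.39 for aged against young controls, -0.23 to -0.13 for labelled knockout against aged controls and 0.19 to 0.26 for labelled knockout against young controls. With each library omitted in turn it was 0.28 to 0.45, -0.33 to -0.015 (without aged control 1) and 0.15 to 0.31. Counts of calls depended on the setting, and the cause was not tested. The setting with B-lineage genes removed also rescaled each library to the same total FPKM.

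Members called as higher in aged against young controls were 3; there were none without a filter, 5 with a mean of at least 5 FPKM, 5 with voom on recovered fragments (Manf and Pdia6 added in both), 4 with median-ratio scaling or B-lineage genes removed, 2 with a pseudocount of 0.1 or 5 or the compared groups alone, and 1 with the replicate number as a block. Lower members were 0, and 1 (Ppp1r15a) with quantile normalization or with B-lineage genes removed. For labelled knockout against aged controls, higher members were 1; none without a filter or with the compared groups alone, and 3 with quantile normalization or with B-lineage genes removed. Lower members were 0, and 1 (Edem2) with a pseudocount of 5, the filter at 5 FPKM, median-ratio scaling, quantile normalization or voom. Against young controls the compared groups alone gave 1 higher member. The ATF4 median for aged against young moved to -0.13 with a pseudocount of 5 and -0.30 with B-lineage genes removed; for labelled knockout against aged to 0.25 and 0.41; and for labelled knockout against young to 0.017 with quantile normalization.

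Over all genes, 141 were higher and 330 lower in aged against young controls: 6 and 33 without a filter, 215 and 200 with median-ratio scaling, 160 and 199 with quantile normalization, 258 and 458 with the compared groups alone, 52 and 131 with the replicate block, 156 and 443 with voom, and 139 and 676 with B-lineage genes removed. Under the last setting, which also rescaled the libraries, the median of all genes was -0.13. The parts of removal and rescaling in that shift were not tested. For labelled knockout against aged controls, 328 were higher and 237 lower: 108 and 38 without a filter, 112 and 37 with the compared groups alone, 244 and 156 with the replicate block, 396 and 263 with voom, 292 and 265 with median-ratio scaling and 433 and 189 with B-lineage genes removed. Under the last setting the median of all genes was 0.07 in this comparison. For labelled knockout against young controls, 10 were higher and 15 lower: 8 and 7 without a filter, and 5 and 7 with a mean of at least 5 FPKM.

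Leaving out each library in turn gave 0 to 8 higher members in aged against young controls, and 1 to 4 higher and 0 to 4 lower members in labelled knockout against aged controls. The 4 higher came without aged control 1, the 4 lower (Xbp1, Sdf2l1, Edem2 and Trib3) without labelled knockout 2. All-gene calls ranged over 0 to 366 higher and 5 to 673 lower, 134 to 596 higher and 63 to 563 lower, and 7 to 13 higher and 4 to 18 lower in the 3 comparisons. The ATF4 median ranged over -0.23 to -0.068 for aged against young and 0.20 to 0.37 for labelled knockout against aged.

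The labels give the groups the same replicate numbers without saying that they pair. Deviations of same-numbered libraries correlated at -0.13 to 0.12, so the numbers were not taken as pairs; under the block Pdia4 was called with age and Creld2, Sdf2l1 and Edem1 were not. Depth limits genes near the filter, such as Chac1 and Derl3.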

Other observations

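Several enzymes and transporters that ATF4 is known to drive were not called in the libraries labelled knockout against the aged controls. Of the serine pathway genes other than Phgdh, Psat1 averaged 1.92 ± 0.286 FPKM in the labelled group and 2.79 ± 1.06 FPKM in the aged controls, Psph 2.58 ± 0.370 FPKM in labelled and 2.70 ± 0.409 FPKM in aged libraries, and Shmt2 8.61 ± 1.34 FPKM in labelled and 10.5 ± 2.26 FPKM in aged libraries (SD, n = 3 each, limma adjusted p = 0.278, 0.87 and 0.392). The aminoacyl-tRNA synthetase genes Gars and Tars had the smallest adjusted p of the 6 synthetase genes, 0.124 and 0.169, with 26.7 ± 1.58 and 27.6 ± 1.79 FPKM in the labelled group and 22.7 ± 0.342 and 23.8 ± 0.436 FPKM in the aged controls. Slc3a2, the partner of Slc7a5 in amino acid transport, had 122.5 ± 6.60 FPKM in the labelled group and 123.6 ± 15.6 FPKM in the aged controls. These genes were picked from the stress response list after their values were seen. The tested genes of the whole list had 19 positive and 9 negative log2 fold changes in this comparison (median 0.11). Of them, 32.1% lay wholly above and 3.57% wholly below the aged controls, against 12.1% and 11.1% of all tested genes.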
